A study of Plutella xylostella with 12 samples.

Results

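Female and male larvae of the diamondback moth (Plutella xylostella), a pest of cabbage crops, were compared at 25 °C in 6 of the 12 RNA-seq libraries of the series. The 6 libraries were chosen by their labels alone: 3 of female larvae, numbered 1, 2 and 4 in the sample titles, and 3 of male larvae, numbered 1 to 3. Each library is a pool of 8 whole larval bodies taken in the middle of the fourth instar from a laboratory population of Australian field origin. All of these larvae fed on cabbage leaves and were kept at 25 °C throughout, and they serve as controls for larvae moved to 10 °C. No source used here says how the larvae were sexed, and RNA of a whole body mixes all organs of 8 animals. The question of the comparison is which transcripts differ between the sexes before the adult stage.

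In moths the female is the sex with unlike sex chromosomes, and both gonads grow during larval life. The testis of the last larval instar holds germ cells on their way to sperm, and testes of insects are known for a large set of transcripts made nowhere else. The fat body, the insect counterpart of liver and adipose tissue, makes storage proteins in the last instar and releases them into the blood as a reserve for metamorphosis. In several moths a methionine-rich storage protein of the SP1 type is made mainly by females, while arylphorins, storage proteins rich in aromatic residues, are made by both sexes.

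Total gene reads ranged from 10616570 to 15719846 in the female libraries and from 12143738 to 17754105 in the male libraries. Levels below are CPM, the reads of a gene scaled to 1 fixed library total for all libraries, after TMM scaling, which corrects for differences in library make-up. The females were less alike than the males. Pearson correlations of log2 CPM over 12484 genes were 0.829 to 0.920 among females, 0.928 to 0.965 among males and 0.701 to 0.841 between the sexes, and genes are not independent replicates. Female replicate 4 stood apart from the other females on both of the first principal components, which held 57.9% and 22.1% of the variance. This library correlated at 0.891 and 0.829 with female replicates 1 and 2, and at 0.834, 0.825 and 0.841 with male replicates 1, 2 and 3. TMM factors were 1.07, 1.33 and 0.790 in females and 0.952, 0.967 and 0.970 in males.

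Of 12484 genes tested, 592 differed between the sexes (4.74%), of which 43 were higher in females (0.344%) and 549 higher in males (4.4%). A gene was called where the p of edgeR's quasi-likelihood test, adjusted by the method of Benjamini and Hochberg over all tested genes, was below 0.05. An unadjusted p below 0.05 was found for 2268 genes (18.2%). The levels of female and male libraries did not overlap for any of the 592 genes. Of all tested genes 22.3% had no overlap (8.91% with all females above all males and 13.4% with all males above all females). The male-higher genes were mostly near silent in females. Their summed level was 762, 1021 and 999 CPM in female replicates 1, 2 and 4, against 15011, 15854 and 14815 CPM in the male libraries. The female-higher genes summed to 46275, 45438 and 29171 CPM in females, against 7222, 5120 and 7245 CPM in males. PxSP1, LOC105388120 and LOC105381553 made up most of this: 42999, 40960 and 27951 CPM in females, against 6769, 4551 and 6716 CPM in males. Median levels over the 43 genes were 17.0, 23.5 and 9.19 CPM in females, against 1.88, 1.62 and 2.91 CPM in males. In a whole body, fewer cells of a type and less RNA per cell cannot be told apart. These counts changed when a single library was left out. Leaving a library out also makes its group smaller, and that effect was not separated from the part of the library itself. Without female replicate 4, 4335 genes were called (31.5%), 2262 higher in females and 2073 higher in males, and all 592 kept their calls, while without female replicate 1 the count was 385 and without male replicate 1, 2 or 3 it was 290, 298 and 293. Of the 43 female-higher genes 8 kept their call without female replicate 1, 18 without female replicate 2, and 2, 2 and 3 without male replicates 1, 2 and 3. Of the 549 male-higher genes 343, 518, 287, 286 and 289 did, in the same order of left-out libraries. Female-higher calls numbered 22 without female replicate 2 and 3, 12 and 4 without each male library. Another test of the same counts, DESeq2, called 1408 genes (11.3%), 559 of them higher in females. The voom method of limma, run with a quality weight for each library, called 5214 (41.8%), 2445 of them higher in females. The edgeR fit of all 12 libraries called 0 (0%), with 3369 at an unadjusted p below 0.05.

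**Figure D1:**
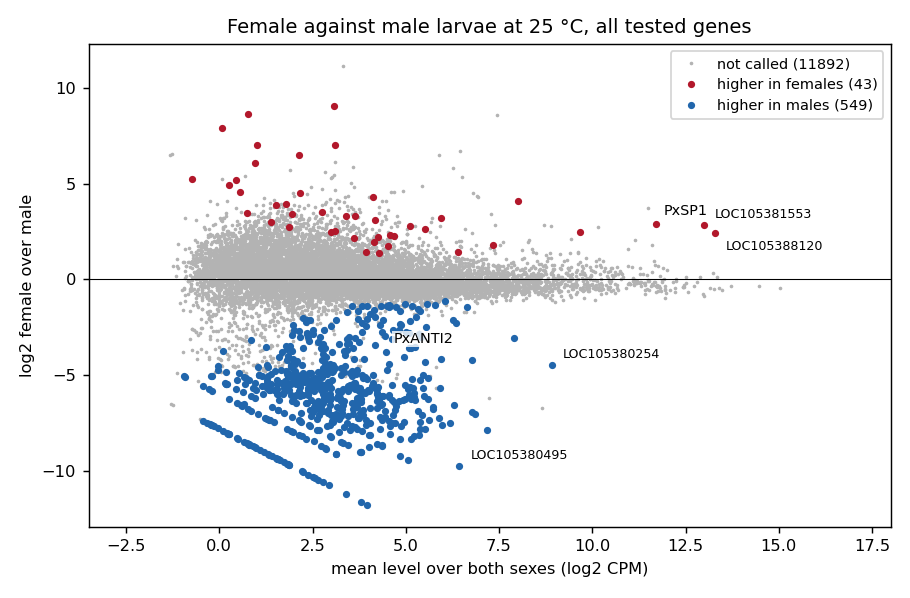
Each point is 1 of 12484 tested genes: the horizontal axis gives its mean level over both sexes in log2 CPM, and the vertical axis the fitted log2 ratio of female over male. The absolute log2 ratio reaches 11.78 among the 549 genes higher in males and 9.04 among the 43 higher in females. The slanted rows at the bottom left are genes with 0 or few reads in females, whose fitted ratio depends on the prior count.

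The male-higher genes differed by large factors. Dividing pooled reads per sex, with 3 reads over the group as the least that a group can hold, the median ratio of male over female was 46.2, and 523 of the 549 genes had a ratio of at least 4, 446 of at least 16 and 123 of at least 100. Of the 549, 49 had 0 reads in all female libraries, a count that allows up to 0.0703 CPM over the group. Such genes passed the filter on low counts through the male libraries alone. For the female-higher genes the median ratio of female over male, with the same floor of 3 reads, was 9.89. Of these 43 genes 37 had a ratio of at least 4, 16 of at least 16 and 3 of at least 100. In 2 of the 43 all male libraries had 0 reads, so these passed the filter through the female libraries alone.

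Among the male-higher genes without any read in females, LOC105396285 (scaffold NW_011952808, 29367 to 30711) had the highest level of those that met the rule for naming. It stood at 0 CPM in each female library and at 22.1, 32.5 and 29.5 CPM in the male libraries (edgeR adjusted p = 0.0013). With 3 reads put in for the 0 female reads, the pooled ratio of male over female was 398. At the 0 reads counted, the lower end of the 95% interval with equal tails was 324 (counting error only). LOC105380540 (NW_011952043, 1066637 to 1071559) had 0 CPM in females, against 20.4, 26.9 and 15.6 CPM in males. Its ratio was 288 with the same 3 reads (lower end of the 95% interval at 0 reads 234). Both genes were present in every male pool and absent at this depth from every female pool. LOC105390307, LOC105395625, LOC105392118 and LOC105391982 had the same pattern, with male means of 15.4 ± 0.380, 12.6 ± 1.42, 11.9 ± 3.38 and 11.4 ± 1.82 CPM (SD, n = 3). Their ratios with the same 3 reads were 219, 177, 162 and 160 (lower ends of the 95% intervals at 0 reads 178, 144, 132 and 129). LOC105391982 overlaps another listed gene, and 62.2% of its reads and 72.3% of those of LOC105396285 mapped uniquely. No product name or symbol stands beside these identifiers in the tables used here.

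A pair of genes had stray reads in females and high levels in males. LOC105380495 (NW_011952011, 3080348 to 3082269) stood at 0, 0.386 and 0.0938 CPM in female replicates 1, 2 and 4, against 180, 185 and 155 CPM in males. That is 9 reads in the 3 female libraries together, and the pooled ratio of male over female is 811 (95% interval from 427 to 1775, counting error only; edgeR log2 female over male -9.74 ± 0.74, adjusted p = 0.00124). LOC105384472 (NW_011952111, 889181 to 891188) had 0, 0.193 and 0 CPM in females, against 56.0, 64.7 and 53.0 CPM in males (log2 -9.23 ± 0.74, edgeR adjusted p = 0.00124). No female library came near the male range for either gene. Of the 9 female reads of LOC105380495 8 came from replicate 2, as did all 4 of LOC105384472, and without that library the fitted log2 differences were -11.60 and -12.53, values that depend on the prior count.

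Female replicate 2 carried low levels of most male-higher genes. It had reads of 497 of the 549 genes, against 190 in female replicate 1 and 227 in female replicate 4. Such counts rise with depth, and female replicate 2 had a TMM-scaled size of 20710076 reads, against 11306138 and 10662705 in replicates 1 and 4. Its median level over these genes was 3.22% of the male mean (quartiles 1.30% and 5.96%), against 0% in each of the other females. The source of these reads was not tested. LOC105388767 (NW_011952231, 132560 to 144022) shows it: 0, 3.09 and 0.281 CPM in female replicates 1, 2 and 4, against 303, 304 and 253 CPM in males (log2 -7.85 ± 1.22, edgeR adjusted p = 0.0103). Without female replicate 2 its log2 difference was -10.92, and the number of male-higher genes was 631, of which 518 were among the 549.

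**Figure D2:**
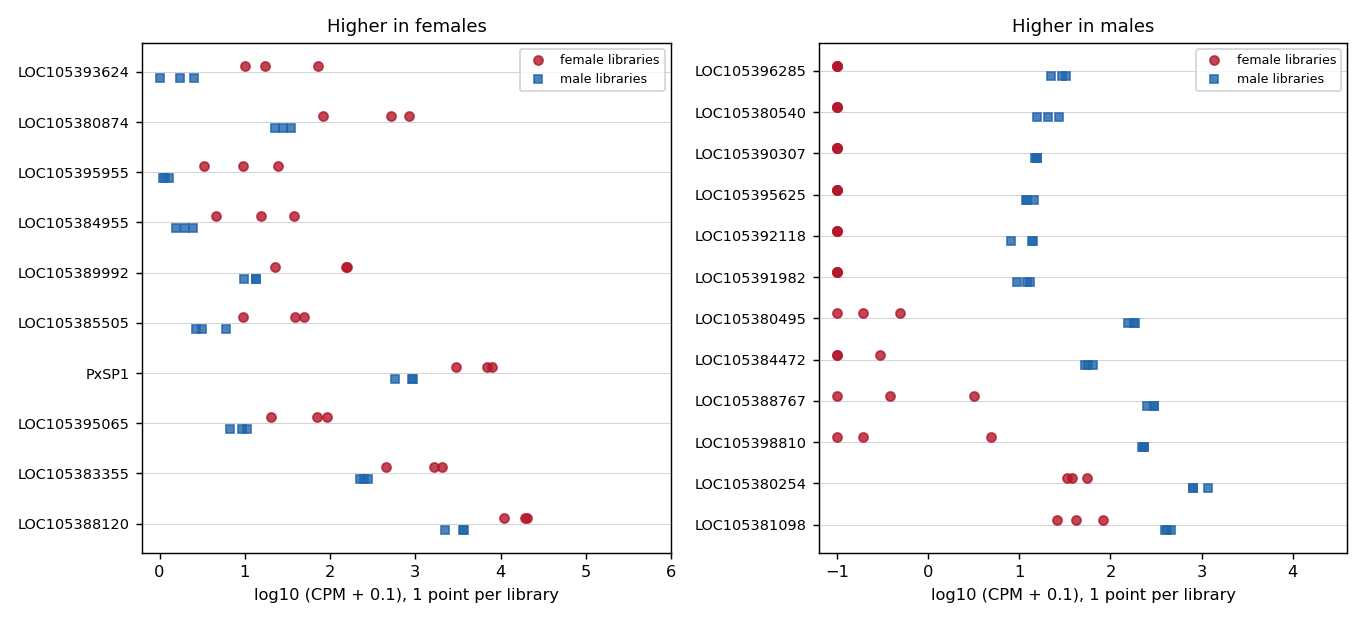
Levels in each library of the 10 female-higher genes (left) and 12 male-higher genes (right) that met the naming rule, as log10 of CPM plus 0.1, with circles for the 3 female libraries and squares for the 3 male libraries. Apart from LOC105380254 and LOC105381098, male-higher genes have a female library at the left edge, which stands for 0 CPM, and for female-higher genes the leftmost circle lies closer to the squares; the sexes do not overlap for any of these genes.

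Of the 33 nuclear genes with a symbol that were tested, 1 was higher in males, PxANTI2, a share near the 4.4% of all genes. PxANTI2 (LOC105395856, NW_011952731, 42205 to 45278) encodes an adenine nucleotide translocase, the carrier that exchanges ATP and ADP across the inner mitochondrial membrane, and its counterpart in the silkworm Bombyx mori is known for its role in sperm formation. It stood at 2.03, 4.30 and 2.34 CPM in females, against 44.7, 43.3 and 36.0 CPM in males. The male level was higher by a log2 difference of -3.82 ± 0.39 female over male (edgeR adjusted p = 0.00218), and the call held when any single library was left out. PxANTI1, another gene of this translocase family, averaged 3776 ± 345 CPM over the females and 3400 ± 136 CPM in males (SD, n = 3), and its log2 difference of 0.15 ± 0.29 did not pass (edgeR adjusted p = 0.80).

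The male-higher genes with the highest levels included some whose reads lay outside the annotated exons. LOC105380254 (NW_011952040, 177511 to 244386), a gene model of 19 exons, had 37.9, 32.8 and 54.5 CPM in female replicates 1, 2 and 4, against 797, 802 and 1187 CPM in males (log2 -4.48 ± 0.37, edgeR adjusted p = 0.00126). Its exon reads alone amounted to 29.8, 26.0 and 48.7 CPM in females, against 45.3, 39.6 and 40.2 CPM in males, and they did not pass the test (log2 -0.26 ± 0.32, edgeR adjusted p = 0.675). Its intron reads came to 8.05, 6.81 and 5.82 CPM in females, against 751, 762 and 1147 CPM in males. Nearly all of the male excess lay in intron reads, and the call was lost on exon reads. Reads across its exon junctions numbered 40, 109 and 2 in female replicates 1, 2 and 4, against 1, 0 and 6 in males.

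LOC105398810 (NW_011952011, 2839900 to 2845049), with 65.2% of its reads in introns, was called on exon reads as well as on total reads. Its total was 0, 4.73 and 0.0938 CPM in female replicates 1, 2 and 4, against 232, 235 and 224 CPM in males, and on exon reads its log2 difference was -6.35 ± 1.31 (edgeR adjusted p = 0.0343). Its call on total reads (log2 -7.04 ± 1.40, adjusted p = 0.0296) was lost without female replicate 1 or any of the male libraries (edgeR adjusted p of 0.057 without female replicate 1 and up to 0.1003 without a male library) and with no filter on low counts (0.0639), and without female replicate 2 its log2 difference was -12.01. LOC105381098 (NW_011952051, 1062809 to 1064783) was at 41.7, 25.7 and 83.3 CPM in females, against 418, 459 and 400 CPM in males (log2 -3.08 ± 0.46, edgeR adjusted p = 0.00858), so it was well above 0 in both sexes, and it lost its call without female replicate 1 (adjusted p = 0.057). In 34 of the 549 male-higher genes more than 50% of reads were intron reads, against 1368 of all 12484 genes (6.19% and 10.96%). Among the 43 female-higher genes 7 were of this kind (16.28%). On exon reads 5.23% of all genes tested were called. Of the male-higher genes that could be tested on exon reads, 501 of 528 kept their call, but of the 34 with most reads in introns only 7 of the 15 that could be tested did.

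**Figure D3:**
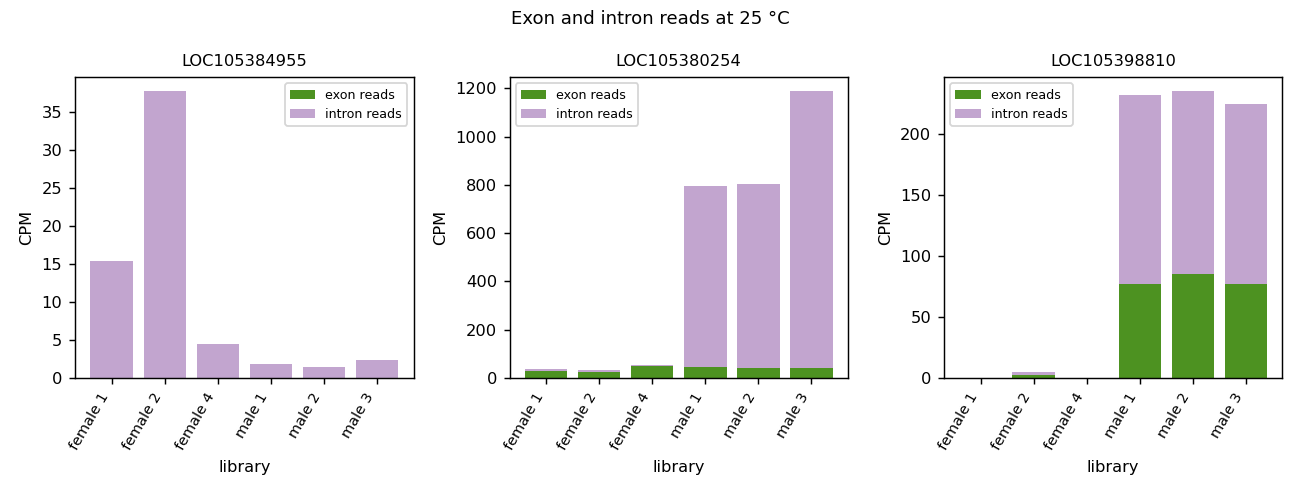
Exon reads (lower part of each bar) and intron reads (upper part) in CPM for the named genes with most reads in introns, by library, female libraries to the left of male libraries; each panel has its own axis. In LOC105380254 the male bars exceed the female bars almost wholly through intron reads, in LOC105398810 through both kinds, and LOC105384955 has intron reads only.

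Among the female-higher genes, 3 lie side by side, and both of the first ones are abundant transcripts. PxSP1 (LOC105388119, NW_011952208, 540138 to 543435), a storage protein gene, had levels of 6875, 7862 and 3013 CPM in female replicates 1, 2 and 4, against 928, 571 and 906 CPM in males (log2 2.88 ± 0.47, edgeR adjusted p = 0.0128). Its neighbour LOC105388120 (546070 to 548955) was at 19496, 20452 and 10974 CPM in females, against 3749, 2229 and 3649 CPM in males (log2 2.40 ± 0.43, edgeR adjusted p = 0.0175). The next gene, LOC105388121 (549582 to 554769), was at 18.2, 15.02 and 26.5 CPM in females, against 5.12, 4.01 and 4.42 CPM in males (log2 2.14 ± 0.36, edgeR adjusted p = 0.0134). All 3 gene models have 5 exons and together span 14632 bp, and the sexes do not overlap for any of them. Female replicate 4 was the lowest female for the first pair and the highest for LOC105388121.

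PxSP1 and LOC105388120 lost their calls without female replicate 1 or any male library (edgeR adjusted p from 0.0565 to 0.129), at log2 differences of 2.15 to 2.93. LOC105388121 lost its call without any of the male libraries (adjusted p from 0.0915 to 0.108). On the same scaffold the arylphorin genes did not pass the test. PxAry1, which lies before PxSP1 at 398647 to 401687, averaged 10838 ± 2921 CPM over the females and 9869 ± 425 CPM in males (log2 0.14 ± 0.35), and PxAry2 10669 ± 2783 CPM over the females and 8650 ± 356 CPM in males (SD, n = 3; log2 0.30 ± 0.35; edgeR adjusted p = 0.851 and 0.655). The sign for PxAry1 turned negative with exon-length offsets and without female replicate 1. Of the storage protein genes with a symbol, 1 of 3 was higher in females, where 0.344% of all tested genes were.

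**Figure D4:**
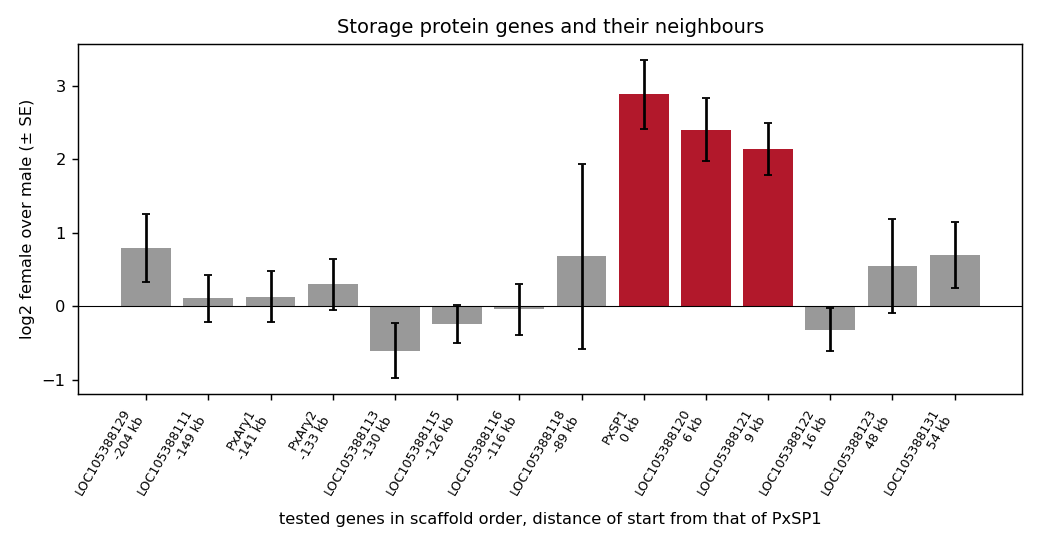
Log2 ratio of female over male (bars, with SE) for the 14 tested genes around the storage protein genes, in scaffold order, each with the distance of its start from that of PxSP1. PxSP1, LOC105388120 and LOC105388121 are called and stand between 2.14 and 2.88, while PxAry1, PxAry2 and the genes next to them lie between -0.60 and 0.79.

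Another abundant female-higher gene, LOC105381553 on a different scaffold (NW_011952058, 1138622 to 1141800), also has 5 exons. It was at 16627, 12645 and 13963 CPM in females, against 2092, 1750 and 2160 CPM in males (log2 2.85 ± 0.35, edgeR adjusted p = 0.0039). Of its reads 9.16% mapped uniquely, so its level may belong in part to a near-identical copy. It falls outside the naming rule for that reason and was chosen after its values were seen. Its uniquely mapped reads numbered 18347, 42804 and 800 in female replicates 1, 2 and 4, against 208, 162 and 379 in males, so on these reads female replicate 4 lay far below the other females and near the males. It was called on them as well (log2 6.19, edgeR adjusted p = 0.0191). PxSP1, LOC105388120 and LOC105381553 together took up 4.58%, 5.40% and 2.21% of all gene reads in female replicates 1, 2 and 4, against 0.644%, 0.439% and 0.651% in males.

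The other female-higher genes that met the naming rule were all low in female replicate 4. LOC105380874 (NW_011952048, 1290195 to 1306452; 27 exons) was at 523, 853 and 81.6 CPM in female replicates 1, 2 and 4, against 22.8, 34.6 and 28.1 CPM in males (log2 4.09 ± 0.79, edgeR adjusted p = 0.0252). LOC105389992 (NW_011952279, 272563 to 287093) was at 155, 158 and 22.3 CPM in females, against 13.5, 9.64 and 13.6 CPM in males (log2 3.19 ± 0.69, edgeR adjusted p = 0.0416). LOC105383355 (NW_011952088, 227162 to 231152) had 1654, 2034 and 448 CPM in females, against 225, 276 and 249 CPM in males (log2 2.46 ± 0.54, edgeR adjusted p = 0.0456). In each, female replicate 4 lay between the other females and the males, nearer to the males. LOC105393624, LOC105385505, LOC105395065, LOC105395955 and LOC105384955 had the same order, with log2 differences of 2.80 to 4.31. LOC105395955 and LOC105380874 overlap other listed genes, and all 1087 reads of LOC105384955 lay in introns of its model.

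Over the 43 female-higher genes, replicate 4 was the lowest female for 30, and its median level was 40.9% of the mean of female replicates 1 and 2. All 8 genes of the preceding paragraph lost their calls without any male library, and LOC105380874, LOC105395065, LOC105395955, LOC105384955, LOC105389992, LOC105385505 and LOC105383355 also without female replicate 1 (edgeR adjusted p from 0.0590 to 0.226 over the left-out libraries). LOC105395955, LOC105384955, LOC105389992, LOC105385505 and LOC105383355 lost theirs without female replicate 2 as well. By contrast LOC105386064 (NW_011952151, 249740 to 272710), chosen after its values were seen because it had the lowest adjusted p among female-higher genes, had 35.5, 43.8 and 39.7 CPM in females, against 8.14, 7.85 and 8.31 CPM in males. Its log2 difference of 2.29 ± 0.27 (edgeR adjusted p = 0.00335) stayed called whichever library was left out, as did that of LOC105381553 on total reads.

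Most other genes with a symbol did not pass the test. Of 46 such genes, 1 was higher in females and 1 in males, close to the share of 4.74% among all genes. Gss, a glucosinolate sulfatase that disarms the defence compounds of cabbage, was at 271, 362 and 7.97 CPM in female replicates 1, 2 and 4, against 4.97, 13.3 and 10.00 CPM in males (log2 4.502 ± 1.18, edgeR adjusted p = 0.0818). The actin gene, of whose reads 55.2% mapped uniquely, had 7004, 6392 and 986 CPM in females, against 1335, 1208 and 1591 CPM in males (log2 1.80 ± 0.66, edgeR adjusted p = 0.209). For both genes female replicates 1 and 2 were high and replicate 4 lay within or below the male range, and without replicate 4 both were called (edgeR adjusted p = 0.000311 and 0.00126).

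Of 4 heat shock genes 0 were called, and at the share of 4.74% among all genes so small a list says nothing about them as a group. Hsp69, a cytosolic chaperone gene, was at 17.2, 57.8 and 13.6 CPM in females, against 100, 84.1 and 97.0 CPM in males without overlap (log2 -1.66 ± 0.55, edgeR adjusted p = 0.164), and without female replicate 2 it was called (log2 -2.60, adjusted p = 0.00143). The constitutive chaperone hsc70 had a log2 difference of 0.70 ± 0.42, the small heat shock gene hsp19.5 of -0.57 ± 0.55 and Hsp90 of -0.10 ± 0.34. Ubx, a Hox gene, had 1.39 ± 0.62 and the glutathione transferase gene pxgstu 1.21 ± 0.62. The midgut markers were Gss, given above, and the serine protease Tryp_SPc1 (log2 0.50 ± 0.44). Tryp_SPc1 and the markers of cuticle tanning (tyrosine hydroxylase Th, -0.27 ± 0.86) and of nervous tissue (the neuropeptide gene Ast-a, -0.15 ± 0.44) had reads in every library and did not pass (edgeR adjusted p from 0.29 to 0.891 over the 8 nuclear genes from hsc70 to Ast-a, leaving out Hsp69 and Gss). Of the 13 mitochondrial mRNAs 0 were called, which is near the share of 4.74% among all genes, and 12 had a negative log2 difference (median -0.46, against 0.06 over all genes). Mitochondrial genes took up 6.92%, 5.96% and 11.4% of gene reads in female replicates 1, 2 and 4, against 12.3%, 9.45% and 11.5% in males (exact permutation test, two-sided, p = 0.2).

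Genes higher in males were short and had few exons, and genes higher in females were long. The median exon length was 2702 bp for the 43 female-higher genes and 1193 bp for the 549 male-higher genes, against 1688 bp over all tested genes. Of the female-higher genes 23 had 10 or more exons (53.5%) and 1 had a single exon (2.33%). Of the male-higher genes 94 had 10 or more exons (17.1%) and 86 a single exon (15.7%), against 29.6% and 8.60% of all tested genes. By class, 8.01% of single-exon genes and 2.55% of genes with 10 or more exons were male-higher, while 0.0931% and 0.623% were female-higher. The median log2 difference of all genes moved with exon length too, from -0.27 in the shortest of 4 equal classes to 0.37 in the longest.

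The same trend could be measured in each library. The slope of a gene's level, as its deviation from the mean of the 6 libraries, on exon length was 0.137, 0.359 and -0.0703 log2 CPM per doubling in female replicates 1, 2 and 4, against -0.132, -0.177 and -0.117 in males. All females lay above all males (exact permutation test, two-sided, p = 0.1, the smallest that 3 against 3 allow). Its part in the exon counts was not tested. With offsets that remove the trend from each library, 65 genes were higher in females and 566 higher in males. These shared 38 of the 43 and 514 of the 549, and their exons were not counted by class.

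**Figure D5:**
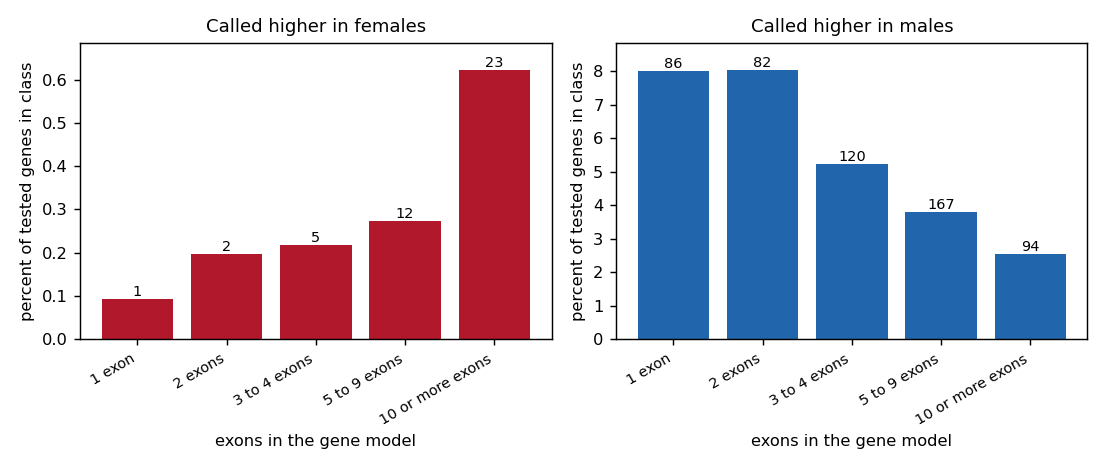
Percent of tested genes called higher in females (left) and higher in males (right) by number of exons in the gene model, with the number of called genes above each bar; the panels have separate axes. The male-higher share is 8.01% for single-exon genes and 2.55% for genes with 10 or more exons, and the female-higher share runs the other way, 0.0931% and 0.623%.

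Male-higher genes often lay beside each other. Counting neighbours along the scaffolds among tested genes, 115 of the 549 (20.9%) had a male-higher gene next to them, against 7.36% of the 11922 other genes with a locus identifier. They formed 43 pairs, 5 runs of 3, 2 runs of 4 and 1 run of 6. The run of 6 spans 18190 bp of NW_011952232 (134251 to 152440) on both strands and comprises LOC105388804, LOC105388820, LOC105388821, LOC105388805, LOC105388806 and LOC105388808. LOC105388804 had 0, 0.579 and 0 CPM in females, against 33.7, 27.9 and 25.3 CPM in males, and LOC105388806 had 0, 0.386 and 0 CPM in females, against 23.3, 28.1 and 27.7 CPM in males. The other 4 had lower levels in males, and female reads of any of the 6 genes occurred in female replicate 2 alone. LOC105388767, described above, forms a run of 3 with LOC105388769 (0, 0.193 and 0 CPM in females, against 14.5, 18.5 and 15.6 CPM in males) and LOC105388770 (0, 0.241 and 0 CPM in females, against 30.2, 26.2 and 21.0 CPM in males), and LOC105398810 ends a run of 3 with LOC105398792 and LOC105398802. No source used here states whether counting used the strand, so neighbouring models may share reads. Another listed gene overlaps 13.3% of the male-higher genes, 20.9% of the female-higher genes (9 of 43) and 11.7% of all tested genes. Among female-higher genes the only run was that of PxSP1, LOC105388120 and LOC105388121.

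The libraries of 10 °C did not enter the fit that called these genes, but earlier results from them were known when the rules were chosen. They did not show the same separation under their sex labels. On levels scaled over all 12 libraries, LOC105380495 was at 0, 5.07 and 16.1 CPM in female and 13.3, 112 and 0 CPM in male 10 °C libraries (replicates 1 to 3), so the sexes overlapped. PxANTI2 levels were 2.78, 6.74 and 27.1 CPM in the females of 10 °C, against 29.9, 59.1 and 1.32 CPM in the males. PxSP1 levels were 5416, 4455 and 832 CPM in the females of 10 °C and 2437, 1312 and 2965 CPM in the males. Female replicate 3 of 10 °C had the highest LOC105380495 and PxANTI2 and the lowest PxSP1 of the females, and male replicate 3 the lowest LOC105380495 and PxANTI2 and the highest PxSP1 of the males. The match of these libraries to their sex labels was not tested.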

How the data were processed

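RNA of 12 pools of larvae was sequenced, of which the 6 pools of 25 °C are compared here. Poly(A) RNA went into randomly primed NEBNext Ultra II libraries that were read in pairs on an Illumina NovaSeq, per the labels' protocols. No source used here names the aligner, counting tool, genome build or annotation. Per the file headers, the deposited tables give whole-number read counts per gene (total, unique, exon and intron) with the authors' TPM and RPKM values, which entered no test.

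Total gene counts of 19364 features were filtered with edgeR 4.0.16 (minimum count 10, minimum total 15), scaled by TMM and fitted with robust quasi-likelihood in R 4.3.3, on the 6 libraries alone, female over male. P-values were adjusted over all 12484 genes tested, and a gene was called below 0.05. SE is the absolute log2 difference over the square root of F. Symbols came from RefSeq's genes of the assembly ilPluXylo3.1, which may differ from the build of the files and in which 10698 identifiers matched, and positions are those of the deposited tables. Intervals and floors (3 reads) cover counting error only. No pair of libraries of a sex matched within counting error. P-values measure the spread between pools of larvae.

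Counts were simulated for the 12484 genes tested, and 12053 of these passed the filter on low counts again. Any changed gene that failed it stays in the totals of 100 below. Called were 31 of 100 genes with a 4-fold change, 86 of 100 with a 16-fold change, and 7 without change. Each gene was drawn independently, with the same spread in both sexes and no library that shifts many genes together. The real females were less alike than the males, so these rates need not hold for the real libraries. Named genes were, in each direction, the 8 with the largest log2 difference and the 4 most abundant among called genes without overlap, at least 10 CPM in the higher sex and at least 50% unique reads, besides genes with a symbol and runs of neighbours. The comparison, lists and rules were chosen with earlier results of these data known. Alternatives were DESeq2 1.42.0 size factors and Wald test, limma 3.58.1 voom with quality weights, other filters and all 12 libraries. Further ones were unique or exon reads, exon-length offsets, a replicate block and leaving out each library. The mitochondrial share, and leaving out libraries for values per library, were added after seeing the data.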

Additional observations from a re-analysis of the deposited data

How the results depend on the processing

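The total of 592 calls was between 290 and 4335 when single libraries were left out, female-higher calls between 3 and 2262, and male-higher calls between 286 and 2073. DESeq2 gave 1408 calls (559 higher in females, 849 in males), voom with quality weights 5214 (2445 and 2769) and the fit of all 12 libraries 0 (0 and 0). The cause of these differences was not tested. With no filter 97 genes were higher in females and 555 in males, over 17637 genes tested, and with exon-length offsets 65 and 566. DESeq2 size factors, a filter of 1 CPM in 3 libraries, unique reads and exon reads gave totals between 587 and 623, but on exon reads only 24 of the 43 female-higher genes kept their call, with 34 of them tested. The share of calls higher in females was 7.26%, but 39.7% with DESeq2, 46.9% with voom and 14.9% with no filter, which moved the median log2 difference to 0.203.

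The replicate numbers 1 and 2 are shared by the sexes, and deviations of same-numbered libraries from their group means correlated at -0.0223 and -0.0738. Pairs with unlike numbers ranged from -0.220 to 0.176. So few pairs cannot decide whether same-numbered libraries were handled together. A replicate block gave 2494 calls (1092 higher in females, 1402 in males), and in that fit female replicate 4 and male replicate 3, alone with their numbers, add nothing. In that fit LOC105388767 and LOC105398810 were not called (edgeR adjusted p = 0.173 and 0.264).

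Among uncalled genes, signs turned for PxAry1 (-0.0312 with exon-length offsets, and from -0.11 to 0.27 over left-out libraries), Hsp90 (from -0.446 to 0.0875 over left-out libraries), Th (0.84 with voom, 0.0299 with the replicate block, from -0.774 to 1.51 over left-out libraries) and Ast-a (0.11 with offsets, 0.33 with the replicate block, from -0.419 to 0.17 over left-out libraries). Of the values per library, the female minus male share of intron reads was -0.141 percentage points (exact permutation p = 0.8; from -0.470 to 0.0711 over left-out libraries), and that of reads in the 100 most abundant genes was -1.001 points (exact permutation p = 0.7; from -4.08 to 1.56). Depth limits genes near 0.0703 CPM over the females.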

Other observations

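LOC105380254, the male-higher gene with the highest level of those that met the naming rule, had 91, 141 and 62 intron reads in female replicates 1, 2 and 4, against 9974, 8938 and 19732 in male replicates 1 to 3. These reads lie in introns of a model that spans 177511 to 244386 of scaffold NW_011952040, and no other listed gene overlaps it.

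All 1004 female and 83 male reads of LOC105384955 were intron reads, with 0 exon reads in each of the 6 libraries.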
